A study of Mus musculus with 12 samples.

Results

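The hypertrophic zone was compared with the prehypertrophic zone of the femoral growth plate in 14-day-old Swiss White mice. The members were the 8 samples titled with these zones, 4 hypertrophic and 4 prehypertrophic, of 12 samples in all, and they were chosen by title. The other 4 samples, from the proliferative zone, linked the arrays. All 12 samples shared strain, age and tissue, none carried a treatment or an engineered allele per the labels, and the 3 zones differed only in where they had been microdissected from cryosections. RNA was amplified and labelled with Cy3 or Cy5, and each array held samples of 2 zones. Arrays 3 and 4 paired hypertrophic 3 and 4 with prehypertrophic 1 and 2 directly, with the dyes exchanged. Arrays 1 and 2 paired hypertrophic 1 and 2 with proliferative 1 and 2, and arrays 5 and 6 paired prehypertrophic 3 and 4 with proliferative 3 and 4, which gave an indirect path. Separate animals are not named in the labels for the 4 samples of a zone, so p-values measure only the spread between these samples, which may be technical.

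In the growth plate, chondrocytes divide in columns, leave the cell cycle as they become prehypertrophic and signal through Indian hedgehog (Ihh), which with parathyroid hormone-related protein sets the pace of maturation. Hypertrophic chondrocytes then swell, deposit collagen X (Col10a1), let their matrix mineralise, make matrix proteases and the vessel factor VEGF, and finally die or give rise to bone-forming cells. The last hypertrophic cells border the marrow, where capillaries, osteoclasts and osteoblasts replace cartilage with bone.

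A level below is the log2 processed signal of a sample after loess, less that sample's 75th percentile, so that 0 is the 75th percentile. A log2 ratio is hypertrophic over prehypertrophic from the limma fit to all 6 arrays, given with its standard error (n = 4 samples per zone), and a gene rose or fell where its Benjamini-Hochberg adjusted p over 27173 features was below 0.05. By that rule 57.8% of all features were called, 28% higher and 29.9% lower in the hypertrophic zone, so a call alone says little, and 7.31% were called and at least 2-fold higher against 3.09% at least 2-fold lower. With each channel fitted on its own and scaled to the 75th percentile, all features shifted by a median of -0.139 log2, against -0.0365 in the within-array fit, and the split changed to 6953 higher and 11911 lower, against 7597 and 8116. Levels did not overlap between the 2 zones for 41.1% of features. Samples correlated at 0.958 to 0.975 within the hypertrophic zone, at 0.962 to 0.977 within the prehypertrophic zone and at 0.905 to 0.946 between them, across features, which are not independent replicates. Of the spots, 92.6% to 96.2% were well above background in each sample.

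Prehypertrophic and proliferative samples that shared an array with a hypertrophic sample stood apart from those that did not. Over 161 features whose hypertrophic mean lay at least 16-fold above proliferative 3 and 4, prehypertrophic 1 lay a median of 0.505 log2 above the mean of prehypertrophic 3 and 4 and was above it at 139 features. The same median was 0.329 in prehypertrophic 2, above at 137 features. Over 14737 features within 0.5 log2 of proliferative 3 and 4 these medians were 0.0554 and 0.0607. Proliferative 1 and 2, also hybridised beside hypertrophic samples, lay 0.994 and 0.545 above proliferative 3 and 4 over 105 features at least 16-fold above prehypertrophic 3 and 4. The excess amounted to a median of 3.16%, 2.2%, 3.9% and 1.84% of the hypertrophic level on the same array in prehypertrophic 1 and 2 and proliferative 1 and 2. Its cause was not tested. A fit of the 8 samples without these 4 was chosen after this was seen. Its remaining prehypertrophic samples, 3 and 4, lay on arrays 5 and 6 and the hypertrophic ones on arrays 1 to 4. It thus held no within-array ratio of the 2 zones, and zone could not be told apart from array. Its values are therefore not corrected ratios. Of the 94 genes named here that rose, 29 had a fold change over 1.5 times as large in this fit, and 1 (Mmp8) had one smaller by as much. Of the 39 named genes that fell, 1 (Scrg1) moved by over 1.5-fold. For all these genes the value without shared arrays stands beside the ratio below.

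Hypertrophic matrix and mineral genes changed unequally. Mmp13, the collagenase that cleaves collagens II and X, had the largest rise of any gene with a symbol that kept its sign on both direct arrays and on the indirect path. Its levels were 5.42, 5.16, 5.19 and 5.25 in hypertrophic samples 1 to 4, against 0.20, -1.01, -2.31 and -2.90 in prehypertrophic samples 1 to 4. The zones did not overlap, and the 2 highest prehypertrophic values came from the samples that shared an array with a hypertrophic sample. Mmp13 rose by 5.86 ± 0.26 (adjusted p = 0.000152), and by 7.86 without the samples that shared an array. Between the proliferative and the prehypertrophic zone it did not pass (-0.15 ± 0.26, prehypertrophic over proliferative, adjusted p = 0.686). In RNA from whole tissue pieces, fewer cells of a type and less RNA per cell cannot be told apart.

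The window from 250 bases before to 50 after the start of Mmp13 (chr9:7272264-7272563, plus strand, GRCm38.p6, from RefSeq) is shown beside that of Mmp10 (chr9:7502092-7502391, plus strand, same build), a second protease that rose, because AP-1 and Runx factors are known to act on Mmp13. Capitals mark matches to the AP-1 motif TGANTCA, which reads alike on both strands, and to the Runx motif TGTGGT on either strand, which appears here as ACCACA.
Mmp13: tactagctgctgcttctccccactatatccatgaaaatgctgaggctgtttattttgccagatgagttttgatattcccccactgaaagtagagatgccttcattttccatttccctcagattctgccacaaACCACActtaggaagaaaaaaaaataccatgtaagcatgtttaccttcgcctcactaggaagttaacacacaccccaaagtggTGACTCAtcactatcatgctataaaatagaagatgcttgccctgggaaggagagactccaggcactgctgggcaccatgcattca
Mmp10: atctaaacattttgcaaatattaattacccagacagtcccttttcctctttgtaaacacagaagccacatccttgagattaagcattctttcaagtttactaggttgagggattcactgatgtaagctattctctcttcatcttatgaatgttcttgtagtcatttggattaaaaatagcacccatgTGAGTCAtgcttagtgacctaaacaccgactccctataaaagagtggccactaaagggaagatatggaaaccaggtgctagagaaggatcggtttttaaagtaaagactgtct
Mmp13 holds an AP-1 match at -35 to -29 and a Runx match at -118 to -113, counted from the start of the gene, with no overlap between them. Mmp10 holds an AP-1 match at -63 to -57 and no Runx match in this window. Among 32851 RefSeq windows, 7.81% held the AP-1 letters, 16.8% the Runx letters and 1.42% both. Of the 15 largest rises 13 had a window, 17 windows in all, of which 2 held the AP-1 letters and 9 the Runx letters. Several of these are stefin A genes, whose sequences resemble each other. Of 18 windows of the 15 largest falls, 4 held the AP-1 letters and 3 the Runx letters. A match describes letters and is no measured site.

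Col10a1, the collagen that defines hypertrophic cartilage, had levels of 2.65, 2.44, 2.49 and 2.40 in hypertrophic samples, against 1.74, 1.82, 1.58 and 1.49 in prehypertrophic samples. Every hypertrophic value was the higher, and the rise of 0.75 ± 0.13 (adjusted p = 0.00932) was small beside the 3.99 ± 0.13 between the proliferative and the prehypertrophic zone. On the indirect path alone it was 0.71 and did not pass (adjusted p = 0.112). Alpl, the phosphatase that frees phosphate for mineral, gave 0.20 ± 0.12 (adjusted p = 0.248), with overlapping levels and saturated spots in 2 hypertrophic and 1 prehypertrophic samples. Ibsp, bone sialoprotein, gave 1.35 ± 0.41 (adjusted p = 0.0688, array 4 left out for a flagged spot), and saturated spots in all 4 hypertrophic samples compress that ratio. Both stood far above the proliferative zone already in the prehypertrophic zone, by 4.99 and 4.29. Cd200, a membrane glycoprotein, gave -0.25 ± 0.13 (adjusted p = 0.178).

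Mgp, matrix Gla protein, an inhibitor of mineral formation, dipped in the prehypertrophic zone. Its levels were 6.22, 5.58, 5.90 and 6.02 in proliferative, 3.58, 2.55, 2.75 and 3.13 in prehypertrophic and 6.95, 6.20, 6.91 and 5.97 in hypertrophic samples. The prehypertrophic samples were the lowest, and the rise to the hypertrophic zone was 3.59 ± 0.10, compressed by saturation in all 4 hypertrophic samples. Sgms2, a sphingomyelin synthase of the cell membrane needed for bone mineralisation, ran the other way, with 2.34, 2.25, 1.96 and 2.52 in hypertrophic against 5.53, 5.74, 5.73 and 5.44 in prehypertrophic samples. It fell by 3.29 ± 0.04 after a difference of 3.12 ± 0.04 at the step before. Car2, a carbonic anhydrase abundant in osteoclasts and red cells, rose by 3.75 ± 0.13 (4.70 without shared arrays). Of the 23 genes of this list 12 rose and 5 fell, against 28% and 29.9% of all features, and 5 rose and 4 fell at least 2-fold. The list's median log2 ratio was 0.29, against -0.04 over all features.

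**Figure D1:**
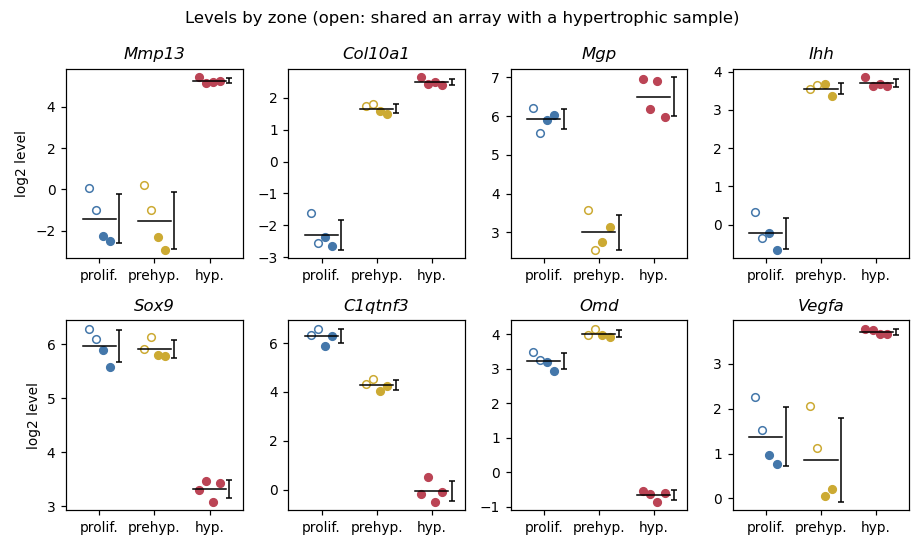
Levels (log2 processed signal less the sample's 75th percentile) of 8 genes by zone, 4 samples each in the order of their replicate numbers, with the mean (line) and SD (bar); open circles are samples that shared an array with a hypertrophic sample. Mmp13 stands between 5.16 and 5.42 in the hypertrophic zone and no higher than 0.20 in the prehypertrophic zone, while Ihh overlaps between them.

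Regulators of the prehypertrophic stage were called about as often as all features, 6 of 30 higher and 11 lower (20% and 36.7%, against 28% and 29.9%). Ihh had levels of 3.85, 3.63, 3.69 and 3.63 in hypertrophic samples, against 3.54, 3.66, 3.66 and 3.35 in prehypertrophic samples. The zones overlapped and the log2 ratio was 0.08 ± 0.10 (adjusted p = 0.539), which turned to -0.07 on the indirect path. The step from the proliferative to the prehypertrophic zone was 3.83 ± 0.10. Pth1r, the receptor for parathyroid hormone-related protein, fell by 0.43 ± 0.06 (adjusted p = 0.00545), with overlapping levels, and gave -0.14 (adjusted p = 0.537) without the samples that shared an array. Ptch1, the hedgehog receptor and a target of the pathway, rose by 0.75 ± 0.18 (adjusted p = 0.0242), but its other probe gave -0.12, and the call was lost with probes averaged (0.32, adjusted p = 0.105), without arrays 2, 4 or 5, and without the samples that shared an array (0.37, adjusted p = 0.195).

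Of the list's genes with the largest ratios, 4 were transcription factors. Foxa3, a forkhead factor of the prehypertrophic stage, had levels of 0.70, 0.54, 0.43 and 0.80 in hypertrophic samples, against 2.71, 3.04, 2.66 and 2.73 in prehypertrophic samples. Its peak thus lay in the prehypertrophic zone, and it fell by 2.09 ± 0.06 after a step of 2.27 ± 0.06 from the proliferative zone. The Iroquois factor Irx5 went up at both steps, with 3.06, 2.94, 2.85 and 2.88 in hypertrophic and 0.99, 0.95, 0.95 and 0.74 in prehypertrophic samples. It rose by 2.11 ± 0.22 after 5.47 ± 0.22 from the proliferative zone, where its levels lay between -5.00 and -4.23. On the indirect path it was 2.35 (adjusted p = 0.0731). Irx3, its relative, rose by 1.27 ± 0.09, a value that differed between the direct arrays (0.45 and 1.96) and was 1.89 without shared arrays, and its call was lost without the dye term. Gli3, a hedgehog effector that mainly represses, fell by 1.23 ± 0.03 by its brightest probe and by 0.47 with probes averaged (adjusted p = 0.129). Of the 30 genes 2 rose and 2 fell by at least 2-fold, and the median was -0.07. Without the samples that shared an array 4 rose and 4 fell.

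Genes of the cartilage matrix fell broadly. Of 38 genes 29 fell and 2 rose (76.3% and 5.26%, against 29.9% and 28% of all features). By at least 2-fold 18 fell (47.4%, against 3.09% of all features). Without the samples that shared an array 22 fell and 0 rose (limma, adjusted p). The median log2 ratio was -0.99, and the summed level of the list was 867.3, 823.2, 822 and 669.7 in hypertrophic samples, against 1386, 1714, 1391 and 966.4 in prehypertrophic samples (linear, in units of the 75th percentile). All hypertrophic sums were below all prehypertrophic sums. Sox9, the transcription factor that sets chondrocyte identity, had levels of 3.29, 3.46, 3.08 and 3.42 in hypertrophic samples, against 5.92, 6.14, 5.80 and 5.79 in prehypertrophic samples. It did not differ between the proliferative and the prehypertrophic zone (-0.00 ± 0.04, adjusted p = 0.955), and it fell by 2.70 ± 0.04 (adjusted p = 3.91e-05). Its 3 probes ranged from -2.70 to -0.27, and their mean gave -1.51.

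C1qtnf3, a secreted protein of growing cartilage, had the largest fall of the list, with levels of -0.16, 0.54, -0.48 and -0.10 in hypertrophic samples, against 4.34, 4.52, 4.02 and 4.25 in prehypertrophic samples. The difference was -4.48 ± 0.14 (a second probe gave -2.05), after -1.85 ± 0.14 at the step before, so the level stepped down along the plate. Scrg1, a secreted factor of chondrogenesis, fell by 3.08 ± 0.29 (by 2.455 without shared arrays). Matrilin 2 (Matn2) fell by 2.83 ± 0.04 and chondromodulin (Cnmd), which keeps vessels out of cartilage, by 2.81 ± 0.16. Of the collagen IX chains, Col9a1 fell by 1.17 ± 0.03 and Col9a2 by 0.82 ± 0.21 (adjusted p = 0.0296), a ratio compressed by saturated spots in 2 prehypertrophic samples, and the Col9a2 call was lost without any single one of arrays 1 to 5 (-0.93 to -0.54). Col2a1, the main cartilage collagen, gave -0.41 ± 0.19 (adjusted p = 0.132), and Acan, the core protein of aggrecan, 0.32 ± 0.09 (adjusted p = 0.0381). Spots of both were saturated, Col2a1 in 2 hypertrophic and 3 prehypertrophic samples and Acan in 4 and 2, so these probes could not follow a change, and the Acan call was lost, among other settings, without array 2, 4, 5 or 6. Sox9, Scrg1, Pth1r, and Crispld1 and Bnip3 below, were saturated in 1 prehypertrophic sample each.

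The largest falls lay mostly outside that list. Omd, osteomodulin, a keratan sulfate proteoglycan known from bone and listed with bone matrix, had levels of -0.55, -0.63, -0.85 and -0.62 in hypertrophic samples, against 3.99, 4.15, 3.99 and 3.92 in prehypertrophic samples. It fell by 4.71 ± 0.03, the largest fall by the naming rule, with ratios of -4.76 and -4.66 on the direct arrays and -4.72 on the indirect path. Several of these genes had been higher in the prehypertrophic than in the proliferative zone. Prom1, prominin 1, had levels of -4.73, -4.32, -3.86 and -3.60 in proliferative, 1.35, 1.42, 1.41 and 1.04 in prehypertrophic and -1.82, -2.20, -2.12 and -1.89 in hypertrophic samples. It fell by 2.97 ± 0.27 after a step of 5.25 ± 0.27, and its probes averaged -1.53. Slc1a3, a glutamate and aspartate transporter, fell by 3.59 ± 0.06 (by 2.82 with probes averaged) after a step of 1.64. Ehd3, an endocytic protein, fell by 3.01 ± 0.03 after 2.17. Crispld1 fell by 3.35 ± 0.09 after 1.77. These genes peaked in the prehypertrophic zone, as Sgms2 and Foxa3 did.

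Of the other large falls, that of Gdf10 went on from the proliferative zone, and for the rest only the second step is given. Gdf10, a ligand of the BMP family, had levels of 4.60, 4.53, 4.31 and 4.26 in proliferative, 1.01, 1.12, 1.03 and 1.08 in prehypertrophic and -1.52, -1.002, -2.27 and -2.20 in hypertrophic samples. It fell at both steps, by 3.03 and then by 2.95 ± 0.19. Rspo3, an enhancer of Wnt signalling, fell by 3.38 ± 0.24, although its other probe gave -0.25. Tmem45a fell by 3.18 ± 0.04, Ppa1, an inorganic pyrophosphatase, by 3.08 ± 0.08, and Hs3st3a1, a heparan sulfate sulfotransferase, by 2.93 ± 0.18. Ppp1r3c, which targets a phosphatase to glycogen, fell by 3.78 ± 0.05, but its second probe gave 0.24.

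Slc5a3, the sodium and inositol cotransporter that cells use against osmotic stress, had levels of 0.91, 1.04, 0.77 and 1.12 in hypertrophic samples, against 5.21, 5.29, 5.13 and 4.87 in prehypertrophic samples. It fell by 4.23 ± 0.03, or by 3.42 with its probes averaged. Among 17 genes of ion, water and volume handling 6 rose and 7 fell (35.3% and 41.2%, against 28% and 29.9% of all features). Their median was 0.08. The water channel Aqp1, abundant in red cells and endothelium, rose by 3.52 ± 0.11 (4.36 without shared arrays), and the sodium pump subunit Atp1b1 by 2.94 ± 0.09.

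Genes of DNA replication and mitosis were low in the prehypertrophic zone and high on both sides of it. Of 54 genes 47 rose and 3 fell in the hypertrophic zone (87% and 5.56%, against 28% and 29.9% of all features). Rises of at least 2-fold numbered 38, and the median log2 ratio was 1.84. Without the samples that shared an array 42 rose and 1 fell. In the prehypertrophic against the proliferative zone 0 of them were higher and 49 lower, where 23.4% of all features were called higher and 22.5% lower, with a median of -1.99. The summed level of the list was 279.5, 254.2, 254.4 and 228.9 in proliferative, 56.57, 50.66, 54.55 and 57.77 in prehypertrophic and 250.6, 230.2, 221.5 and 221.3 in hypertrophic samples. The hypertrophic sums reached those of the proliferative zone, and no prehypertrophic sum came near either.

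Mki67, a protein of dividing cells, had levels of 5.26, 4.97, 5.17 and 4.99 in proliferative, 1.97, 1.41, 1.37 and 1.47 in prehypertrophic and 5.67, 5.55, 5.59 and 5.53 in hypertrophic samples. It rose by 4.07 ± 0.09 into the hypertrophic zone, where all 4 values were above every proliferative value. Aurkb, a mitotic kinase, had 2.26, 1.95, 2.17 and 1.80, -3.88, -3.81, -3.72 and -3.68 and 0.57, 0.49, 0.38 and 0.44 in the same order of zones. It rose by 4.31 ± 0.06 and stayed below its proliferative level. Cyclin A2 (Ccna2) rose by 2.09 ± 0.05 and Nusap1, a spindle protein, by 3.94 ± 0.06, or by 2.11 with probes averaged. Ect2, needed for cytokinesis, rose by 4.41 ± 0.16 by its brightest probe, but the other probe gave -0.25. These samples were also the ones rich in marrow markers. The neutrophil list summed to 442.7, 349.1, 393.3 and 329 in hypertrophic samples, against 28.18, 18.96, 16.45 and 16.56 in prehypertrophic samples, and 20 of 20 erythroid genes rose. Both are lineages whose precursors divide, and their part in the rise of the replication genes was not tested. The list's sums in the prehypertrophic samples that shared an array (56.57 and 50.66) overlapped those in the other 2 (54.55 and 57.77), while Mki67 averaged 1.69 in the 2 that shared one and 1.42 in the other 2.

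**Figure D2:**
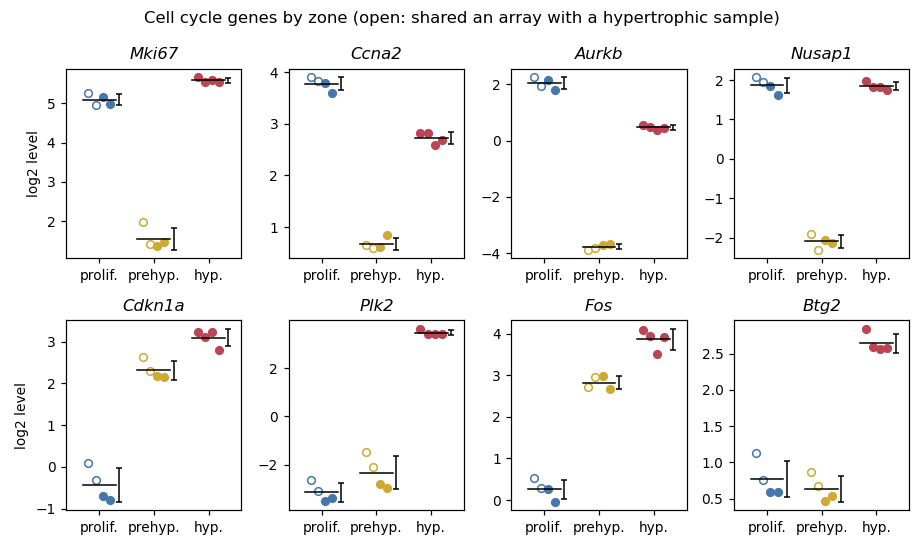
Levels (log2 processed signal less the sample's 75th percentile) of 8 genes of the cell cycle and immediate-early response by zone, 4 samples each in replicate order, with the mean (line) and SD (bar); open circles are samples that shared an array with a hypertrophic sample. Mki67, Ccna2, Aurkb and Nusap1 are lowest in the prehypertrophic zone, whereas Plk2 and Btg2 are highest in the hypertrophic zone.

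Genes of cell cycle inhibition and arrest gave a larger share of rises than all features and a like share of falls. Of 19 genes 12 rose and 6 fell (63.2% and 31.6%, against 28% and 29.9% of all features, and 10 and 3 without shared arrays), 7 rising at least 2-fold, with a median of 0.60. Their summed level overlapped, from 165.4 to 222.1 in hypertrophic and from 127.7 to 238.4 in prehypertrophic samples. Cdkn1a (p21), which blocks cyclin-dependent kinases, had levels of 3.24, 3.10, 3.24 and 2.80 in hypertrophic samples, against 2.63, 2.31, 2.18 and 2.14 in prehypertrophic samples. It rose by 0.60 ± 0.07, with no overlap, after a larger step of 2.81 ± 0.07 from the proliferative zone. The growth arrest gene Gadd45a rose by 3.09 ± 0.09, with ratios of 2.80 and 3.31 on the direct arrays and 3.90 without shared arrays. Gadd45g rose by 1.83 ± 0.04 after -1.90 ± 0.04 and so had its lowest level in the prehypertrophic zone. Ccng2, cyclin G2, which accompanies arrest, rose by 2.07 ± 0.04, and Btg2, an antiproliferative gene, by 1.93 ± 0.04 (0.76 with probes averaged). Cdkn1b (p27) fell by 0.48 ± 0.03, a call that was lost with its 3 probes averaged (-0.12, adjusted p = 0.695). Cdkn1c (p57) gave -0.57 ± 0.17 (adjusted p = 0.0423), compressed by saturated spots in 2 hypertrophic and 3 prehypertrophic samples, and that call was lost without array 1, 3 or 6 and without shared arrays (-0.17, adjusted p = 0.76).

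Immediate-early genes, which cells switch on within minutes of a stimulus, included some of the largest rises. Of 28 genes 20 rose and 3 fell (71.4% and 10.7%, against 28% and 29.9% of all features). Rises of at least 2-fold numbered 12, and the median was 0.80. The list's summed level overlapped, from 133.4 to 171.9 in hypertrophic and from 127.9 to 165.7 in prehypertrophic samples. Its hypertrophic mean was 1.03 times the prehypertrophic mean, which was 3.20 times the proliferative mean. Plk2, an immediate-early kinase, had levels of 3.63, 3.45, 3.42 and 3.44 in hypertrophic samples, against -1.48, -2.11, -2.82 and -2.96 in prehypertrophic samples. The zones did not overlap, and it rose by 5.54 ± 0.20 (adjusted p = 9.66e-05), or by 6.37 without shared arrays. Egr1, a zinc-finger factor, had 4.03, 3.86, 3.40 and 3.79 in hypertrophic and -1.46, -1.64, -1.73 and -1.61 in prehypertrophic samples. It rose by 5.32 ± 0.11 after -1.37 ± 0.11 from the proliferative zone, and its 4 prehypertrophic values lay close together whether or not they shared an array. Egr2 rose by 2.79 ± 0.10 and Rgs2, a regulator of G protein signals, by 3.74 ± 0.09, or by 1.08 with its 3 probes averaged. Fos, a subunit of AP-1, rose by 1.04 ± 0.04 (array 3 left out for a flagged spot) after a larger step of 2.66 ± 0.04.

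Matrix proteases and their inhibitors gave changes in both directions. Of 26 genes 14 rose and 9 fell (53.8% and 34.6%, against 28% and 29.9% of all features, and 12 and 4 without shared arrays), 8 rising at least 2-fold, with a median of 0.66. Mmp9, the gelatinase of osteoclasts and neutrophils that opens cartilage for vessels, had levels of 3.44, 3.22, 3.11 and 3.26 in hypertrophic samples, against -0.50, -1.63, -2.82 and -2.41 in prehypertrophic samples. It rose by 4.41 ± 0.13 (5.88 without shared arrays). Cathepsin S (Ctss), of macrophages and other antigen-presenting cells, rose by 4.09 ± 0.06, and Mmp10, stromelysin 2, by 2.27 ± 0.05. Mmp8, the neutrophil collagenase, gave 4.07 ± 0.66 (3.43 without shared arrays) with ratios of 6.39 and 2.80 on the direct arrays, and 1 prehypertrophic sample was not well above background. Mmp2, a gelatinase of connective tissue, fell by 1.47 ± 0.08 after -1.04 ± 0.08.

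Of 27 factors that attract or repel vessels 13 rose and 5 fell (48.1% and 18.5%, against 28% and 29.9% of all features). Rises of at least 2-fold numbered 9, and the median was 0.24. Vegfa, the main vessel growth factor of hypertrophic cartilage, had levels of 3.78, 3.76, 3.66 and 3.67 in hypertrophic samples, against 2.07, 1.12, 0.05 and 0.21 in prehypertrophic samples. The hypertrophic values were all higher, while the prehypertrophic ones ran from 0.05 and 0.21 in the samples that shared no array with a hypertrophic sample to 2.07 and 1.12 in those that did. It rose by 2.36 ± 0.16 (adjusted p = 0.000499), or by 3.59 without the shared arrays, and was 2.17 on the direct path (adjusted p = 0.0568). Its 4 probes ranged from -0.15 to 3.23. Vegfc, a lymphatic vessel factor, rose by 1.68 ± 0.18 and the VEGF coreceptor Nrp2 by 3.93 ± 0.11. Cxcl12, the chemokine that retains blood cells in marrow, rose by 2.94 ± 0.18 (2.07 with probes averaged). Ccn2, connective tissue growth factor, had 6.68, 6.18, 6.45 and 5.98 in hypertrophic and 3.46, 2.996, 3.10 and 2.97 in prehypertrophic samples. It rose by 3.19 ± 0.08 after -1.45 ± 0.08, so its lowest levels were prehypertrophic, and 2 hypertrophic samples were saturated.

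Signals that call osteoclasts and inflammatory cells gave 8 rises and 1 fall among 19 genes (5 and 1 without shared arrays), with a median of 0.31. The rises and the fall made up 42.1% and 5.26%, against 28% and 29.9% of all features. Ptgs2, cyclooxygenase 2, had levels of 4.01, 3.83, 3.73 and 3.84 in hypertrophic samples, against -0.40, -0.62, -0.65 and -0.93 in prehypertrophic samples. It rose by 4.16 ± 0.37 (adjusted p = 0.00111) after 3.19 ± 0.37 from the proliferative zone, so it climbed at both steps. The indirect value was 3.69 (adjusted p = 0.0753). Csf1, needed for osteoclast precursors, rose by 2.69 ± 0.09, interleukin 1 beta (Il1b) by 3.31 ± 0.11 and the chemokine Ccl9, made by osteoclasts, by 2.11 ± 0.12. Tnfsf11 (RANKL), which drives osteoclast formation, gave 0.34 ± 0.15 (adjusted p = 0.138), and 1.00 with its 2 probes averaged (adjusted p = 0.0393). Its decoy receptor Tnfrsf11b rose by 0.40 ± 0.08 (adjusted p = 0.0149), lost without array 3 or 4 and without the samples that shared an array (0.19, adjusted p = 0.452).

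Of 44 Wnt, BMP and TGF-beta genes 18 rose and 15 fell (40.9% and 34.1%, against 28% and 29.9% of all features), with a median of 0.03. Inhba, a subunit of activin, rose by 2.71 ± 0.14 (3.40 without shared arrays) after 0.96 ± 0.14. Lef1, a nuclear effector of Wnt, rose by 3.80 ± 0.13 by its brightest probe, a call lost with its 3 probes averaged (1.32, adjusted p = 0.084). The ligand Wnt4 fell by 1.57 ± 0.13, Wnt5a by 1.12 ± 0.02 and the BMP antagonist Chrdl1 by 2.27 ± 0.03 (by 1.27 with probes averaged). Of 28 IGF, FGF and natriuretic peptide genes 12 rose and 8 fell (42.9% and 28.6%), with a median of 0.00. Dusp6, a feedback inhibitor of ERK signalling, rose by 3.97 ± 0.14 (5.00 without shared arrays). Spry4, another inhibitor of that pathway, was at least 28.3-fold higher by a probe not well above background in any prehypertrophic sample. This bound sets the hypertrophic mean against the background limit. No p-value is given for it, since the fitted ratio rests on prehypertrophic signals that were not well above background. The second Spry4 probe gave -0.64. The IGF binding proteins Igfbp5 and Igfbp3 rose by 2.51 ± 0.10 and 2.44 ± 0.05, or by 1.11 and 1.66 with probes averaged.

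Genes of glycolysis and the hypoxia response fell. Of 31 genes 18 fell and 5 rose (13 and 3 without shared arrays), 8 falling at least 2-fold, with a median of -0.35. The shares were 58.1% lower and 16.1% higher, against 29.9% and 28% of all features. Pdk1, the kinase that keeps pyruvate out of mitochondria, had levels of 0.68, 0.73, 0.41 and 0.69 in hypertrophic samples, against 3.27, 3.40, 3.35 and 3.03 in prehypertrophic samples. It fell by 2.65 ± 0.05 and had not differed at the step before (-0.13 ± 0.05, adjusted p = 0.107). The hypoxia target Bnip3 fell by 2.58 ± 0.03, the lactate exporter Slc16a3 by 1.75 ± 0.07 and Pfkfb3, an activator of glycolysis, by 1.72 ± 0.03 (by 0.956 with probes averaged). The glucose transporter Slc2a3 rose by 1.43 ± 0.07 (0.44 with probes averaged).

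Mitochondrial respiration went the other way by smaller steps. Of 32 genes 21 rose and 7 fell, only 1 by at least 2-fold, Ndufa4, a subunit of the respiratory chain, with 3.79, 3.62, 3.52 and 3.65 in hypertrophic samples, against 2.61, 2.72, 2.80 and 2.46 in prehypertrophic samples. It rose by 1.02 ± 0.02, and Sdhb, of succinate dehydrogenase, by 0.89 ± 0.03. Rises made up 65.6% and falls 21.9% of the list, against 28% and 29.9% of all features. The list's median was 0.23, and that of the step before was -0.15. Without the samples that shared an array 13 rose and 1 fell.

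Genes of secretion and the unfolded protein response fell on balance, 16 down and 5 up of 28 (9 and 3 without shared arrays), with a median of -0.30. The shares were 57.1% lower and 17.9% higher, against 29.9% and 28% of all features. Creb3l2, which drives secretory capacity in chondrocytes, fell by 1.72 ± 0.04 after -1.53 ± 0.04, and the coat subunit Sec24d fell by 1.29 ± 0.03. Dnajb9, a chaperone of the endoplasmic reticulum, rose at both steps, by 0.98 and 1.29 ± 0.02.

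Genes of apoptosis and autophagy gave 22 rises and 3 falls among 35 genes, against 28% and 29.9% of all features, with a median of 0.30. Rises covered both sides of cell death. The survival factor Bcl2 had levels of 3.09, 2.99, 2.91 and 2.73 in proliferative, 0.36, 0.54, 0.49 and 0.30 in prehypertrophic and 2.66, 2.38, 2.34 and 2.36 in hypertrophic samples. It rose by 2.01 ± 0.03 after -2.45 ± 0.03, the same dip as the replication genes showed. Bcl2l11 (Bim), which promotes death, rose by 2.48 ± 0.09 (1.52 with probes averaged) and Pmaip1 (Noxa) by 2.41 ± 0.40. Mcl1, a survival factor, rose by 1.39 ± 0.16 (2.02 without shared arrays), with prehypertrophic 3 at 0.60 and the other 3 prehypertrophic samples between 2.01 and 2.12. Heat shock chaperones gave 5 rises and 3 falls among 13 genes (38.5% and 23.1%, near the shares of all features, and 2 and 1 without shared arrays), 0 of them by 2-fold.

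**Figure D3:**
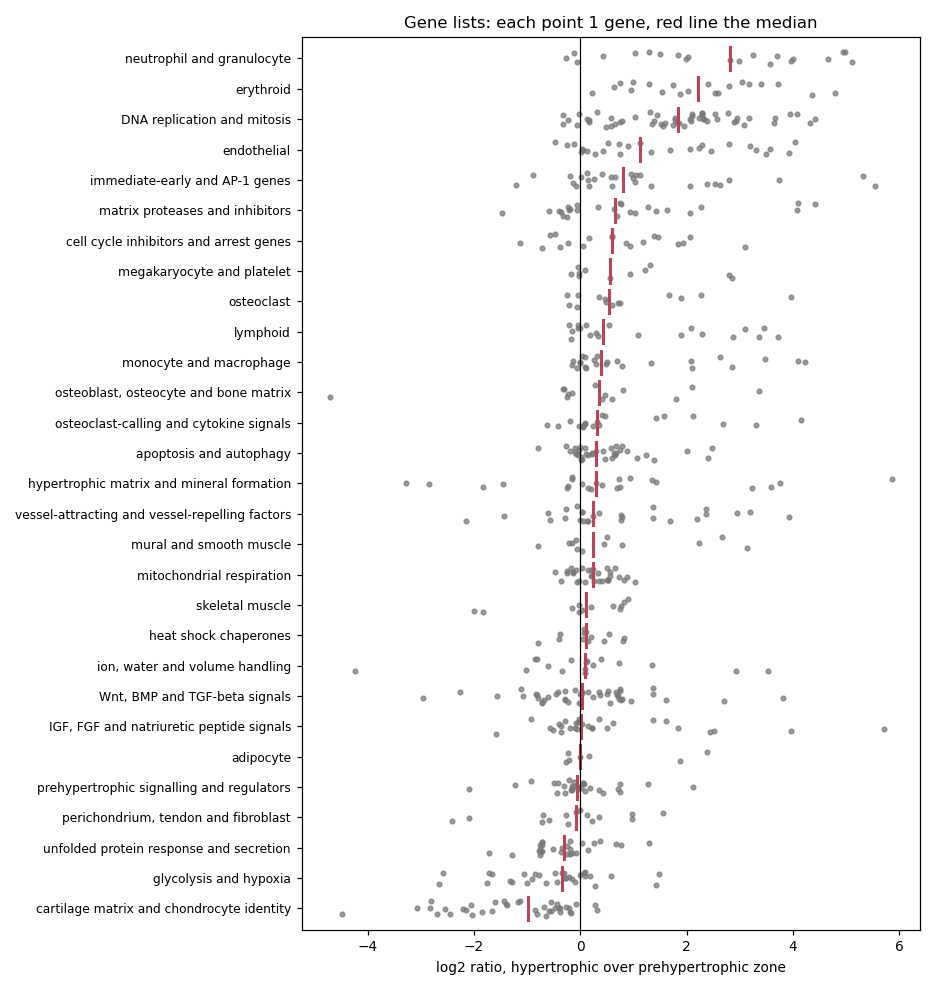
Log2 ratio, hypertrophic over prehypertrophic zone, of every tested gene of 29 lists (grey points, spread vertically at random) with each list's median (red line), ordered by the median. The neutrophil (2.81), erythroid (2.21) and DNA replication (1.84) lists have the highest medians and cartilage matrix (-0.99) the lowest.

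Genes that mark blood, marrow and vessels were far higher in the hypertrophic samples. Of 20 erythroid genes 20 rose, 15 by at least 2-fold, with a median of 2.21. Of 21 neutrophil genes 18 rose and 2 fell, 17 rising at least 2-fold, with a median of 2.81. Among all features 28% rose and 29.9% fell. Without the samples that shared an array 19 erythroid and 18 neutrophil genes rose. None of the list members was below background in every prehypertrophic sample. Only 45 of all 27241 features were, so the background flag cannot tell whether these cells were present there. S100a8, a neutrophil calcium-binding protein, had levels of 6.11, 5.86, 5.93 and 5.89 in hypertrophic samples, against 1.42, 0.68, 0.63 and 0.24 in prehypertrophic samples. It rose by 4.94 ± 0.14, its partner S100a9 by 3.97 ± 0.09 (5.17 without shared arrays, with 2 hypertrophic samples saturated) and Camp, a granule peptide, by 5.11 ± 0.14 (6.72). Lyz2, lysozyme of myeloid cells, rose by 4.23 ± 0.17 (5.46 without shared arrays), or by 3.03 with probes averaged. The stefin A genes Stfa1, Stfa2, Stfa3, Stfa2l1, Cstdc4 and Cstdc5, cysteine protease inhibitors abundant in mouse neutrophils, rose by 4.53 to 4.98 (Stfa2 by 5.76 without shared arrays). Spots of Stfa1 and Cstdc5 were saturated in 2 hypertrophic samples each, which compresses their ratios, and as close copies of each other they may share probes' signal. Srgn, the granule proteoglycan serglycin, rose by 4.65 ± 0.12 and Plac8, of myeloid cells, by 4.61 ± 0.17 (5.23 without shared arrays).

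The alpha globin gene Hba-a1 had levels of 5.48, 5.29, 5.28 and 5.20 in hypertrophic samples, against 1.77, 1.43, 0.44 and 0.66 in prehypertrophic samples. The 2 prehypertrophic samples that shared an array with a hypertrophic sample were the higher ones, and it rose by 3.71 ± 0.11 (4.76 without shared arrays). Alas2, the first enzyme of haem synthesis in red cells, rose by 3.04 ± 0.14 (4.25 without shared arrays). The membrane proteins Epb42 and Ermap rose by 4.36 ± 0.14 and 3.40 ± 0.17 (5.32 and 4.29 without shared arrays). Hemgn, of blood progenitors, rose by 4.78 ± 0.07. With probes averaged Epb42 and Hemgn rose by 2.80 and 3.17. Hbb-b1 was saturated in all 4 hypertrophic samples and gave 0.74 ± 0.14 (adjusted p = 0.049, 1.68 without shared arrays), a compressed ratio, from which flagged spots left out array 4 and whose call was lost without loess, among other settings. With its probes averaged Hbb-b1 gave 2.63. The erythroid list summed to 251, 183.5, 234.3 and 171.5 in hypertrophic samples, against 119.1, 27.68, 40.64 and 43.21 in prehypertrophic samples. Prehypertrophic 1 stood above the other prehypertrophic samples but below every hypertrophic sample. The hypertrophic mean was 3.64 times the prehypertrophic mean for this list, or 5.65 times without prehypertrophic 1, and 18.9 times for the neutrophil list. Saturation limits these values. Hbb-b1, at a saturated hypertrophic mean level of 6.52, weighs heavily in the linear erythroid sum, so 3.64 and 5.65 are compressed. The neutrophil sum holds S100a9 and Stfa1, also saturated in some hypertrophic samples.

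Lists of other marrow cells rose by smaller medians. Among 20 lymphoid genes 13 rose and 2 fell (65% and 10%, against 28% and 29.9% of all features), with a median of 0.43. The largest changes included Cd79b and Vpreb1, of B cells and their precursors, at 3.36 ± 0.09 and 3.71 ± 0.14. Of 24 monocyte and macrophage genes 12 rose, 1 fell and 11 were not called (50% higher and 4.17% lower), with a median of 0.39. The adaptor Tyrobp rose by 2.84 ± 0.05 (3.66 without shared arrays) and the pan-leukocyte phosphatase Ptprc by 3.47 ± 0.07 (1.39 with its 4 probes averaged). Among 11 megakaryocyte and platelet genes 6 rose and 1 fell (54.5% and 9.09%), with a median of 0.56. The rises were led by Pf4, platelet factor 4, at 2.85 ± 0.05 and the transcription factor Nfe2 at 2.80 ± 0.17 (3.80 without shared arrays).

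Endothelial genes gave 20 rises and 3 falls of 27, 14 rising at least 2-fold, with a median of 1.12 (18 rises and 4 falls without shared arrays). Rises made up 74.1% and falls 11.1%, against 28% and 29.9% of all features. Kdr, the main VEGF receptor, had levels of 2.41, 2.12, 2.06 and 2.19 in hypertrophic samples, against -1.23, -1.31, -1.37 and -1.06 in prehypertrophic samples. It rose by 3.57 ± 0.08, and its prehypertrophic samples that shared an array (-1.23 and -1.31) lay between the other 2 (-1.37 and -1.06). Emcn, of capillaries and veins, rose by 3.30 ± 0.11, Cd34, shared with blood progenitors, by 4.05 ± 0.16 (4.70 without shared arrays) and Cd93 by 3.92 ± 0.13 (4.60, or 2.08 with probes averaged). The list summed to 59.91, 55.87, 55.65 and 56.62 in hypertrophic samples, against 31.38, 26.57, 27.58 and 31.55 in prehypertrophic samples, 1.95 times in the mean. Of 12 mural cell genes 6 rose and 1 fell, with a median of 0.24, and 3 rose without shared arrays. Pdgfrb, the receptor of pericytes, rose by 3.14 ± 0.09 and Mcam by 2.67 ± 0.09 (3.34 without shared arrays, 1.54 with probes averaged). The mural list's sums overlapped, from 77.49 to 109.9 in hypertrophic and from 70.3 to 120.6 in prehypertrophic samples. Their hypertrophic mean was 0.88 times the prehypertrophic mean.

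Of 14 osteoclast genes, which mark the cells that resorb bone, 9 rose and 2 fell. These were 64.3% and 14.3%, against 28% and 29.9% of all features. The list summed to 34.68, 32.9, 33.29 and 32.78 in hypertrophic samples, against 23.41, 20.08, 19.93 and 20.74 in prehypertrophic samples. Ctsk, the collagen-degrading cathepsin of osteoclasts, rose by 3.95 ± 0.18 (4.71 without shared arrays), Acp5, tartrate-resistant phosphatase, by 1.89 ± 0.06 and the proton pump subunit Atp6v0d2 by 2.28 ± 0.07 (3.22 without shared arrays). Of 14 osteoblast and bone matrix genes 8 rose and 4 fell (57.1% and 28.6%, against 28% and 29.9% of all features, and 5 and 2 without shared arrays), Omd among the falls. Col1a1, the main bone collagen, rose by 3.37 ± 0.05 by its brightest probe, although its 3 probes ranged from -0.81 to 3.37, and Col1a2 rose by 1.79 ± 0.10, with 2 hypertrophic samples saturated. Postn, periostin, rose by 2.11 ± 0.10 (0.79 with probes averaged). Bglap, osteocalcin, fell by 0.26 ± 0.04 (adjusted p = 0.00456), with overlapping levels, and gave -0.20 (adjusted p = 0.275) without the samples that shared an array.

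Of tissues at the side of the plate, the perichondrium and tendon list summed to 31.93, 31.5, 31.96 and 36.61 in hypertrophic samples, against 56.32, 58.26, 69.3 and 67.69 in prehypertrophic samples. All hypertrophic sums were lower, but 4 of its 15 genes rose and 3 fell (26.7% and 20%, against 28% and 29.9% of all features), with a median of -0.08. The linear sum leans on bright genes such as Thbs4. Its level averaged 4.46 and 4.27 in prehypertrophic samples that did and did not share an array, and 1.95 in hypertrophic samples. Mkx, a transcription factor of tendon, rose by 0.96 ± 0.03 with no overlap. Thbs4, of tendon, fell by 2.42 ± 0.03 (by 1.51 with probes averaged) and the collagen Col12a1 by 2.09 ± 0.07, though 1 of the Col12a1 probes gave 0.12. Of 12 skeletal muscle genes 3 rose and 2 fell (5 and 2 without shared arrays). These were 25% and 16.7%, against 28% and 29.9% of all features. The muscle list summed to 13.91, 18.2, 12.55 and 13.89 in hypertrophic samples, against 29.82, 32.18, 27.38 and 30.49 in prehypertrophic samples. All its hypertrophic sums were the lower, but the list's median log2 ratio was 0.11. A linear sum follows its brightest genes, here Tnni2. Its level averaged 4.57 and 4.47 in prehypertrophic samples that did and did not share an array, and 2.66 in hypertrophic samples. The cardiac actin Actc1 rose by 0.82 ± 0.04 with no overlap, and Tnni2, a fast muscle troponin, fell by 1.99 ± 0.13. Of 7 adipocyte genes 3 rose and 2 fell (42.9% and 28.6%), with a median of -0.02. Adiponectin (Adipoq) rose by 1.88 ± 0.14 and Fabp4, which capillaries also express, by 2.38 ± 0.12.

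**Figure D4:**
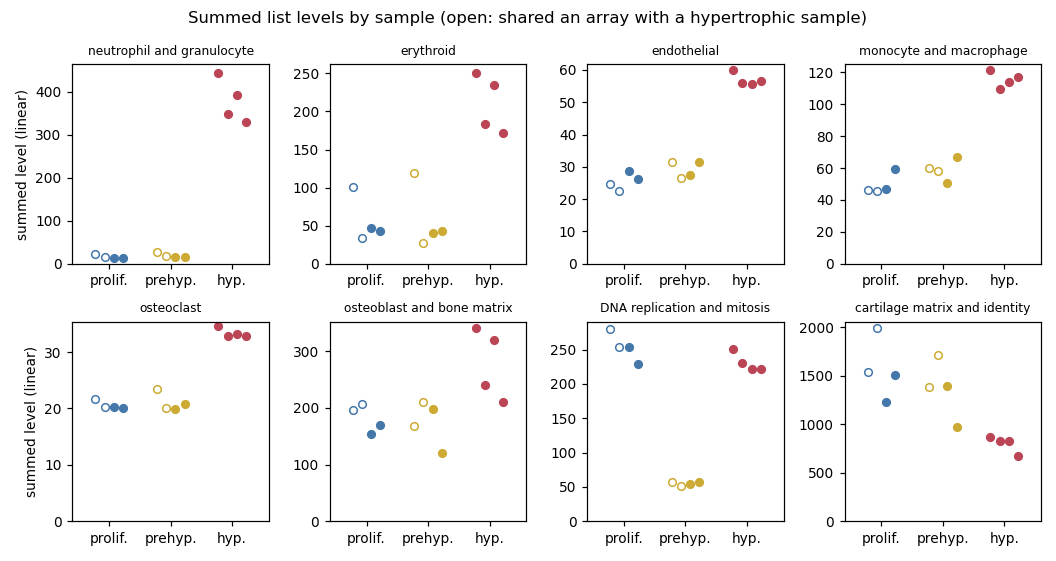
Summed linear levels of 8 gene lists in each sample by zone (units of the sample's 75th percentile, axes from 0, samples in replicate order); open circles are samples that shared an array with a hypertrophic sample. Neutrophil and erythroid sums are highest in the hypertrophic samples, DNA replication is low in the prehypertrophic samples alone, and cartilage matrix is lowest in the hypertrophic ones.

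Several genes described above are shared with other cells. Mmp9, Ctsk, Car2, Il1b, Ctss, Aqp1, Cxcl12 and the replication genes are all known from marrow, vessel or bone cells, and they rose in the same samples as those cells' markers. The part of these cells in each rise was not tested. Mmp13 and Vegfa are known from hypertrophic chondrocytes, and Mmp13 also from osteoblasts. Col10a1, Irx5, Ptgs2, Cdkn1a, Fos, Inhba, Igfbp5 and Dnajb9 were called higher at both steps, with first steps of 0.96 to 5.47. Some marrow genes were too, Srgn, Ctss, Ptprc, Pf4, Stfa1, Cstdc4 and Cstdc5 among them, with first steps of 0.42 to 1.26.

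The direct and the indirect path were set against each other. Over 23917 features the 2 log2 ratios had a correlation of 0.906, with a median absolute difference of 0.0786 where the ratio itself had a median size of 0.278. Features are not independent replicates. The difference between them was called at 0 of 26801 features (limma loop closure), where 1485 had an unadjusted p under 0.05. The indirect path alone called 30.7% of its 24335 features and the direct path, with 2 arrays, 16% of 26540. Of 7365 features called on the indirect path that had direct values, 7089 had the same sign on both direct arrays, and of those at least 2-fold 2453 of 2512 did. Arrays 1 and 2 of the indirect path also held hypertrophic samples beside their partner, so this comparison says nothing of what sharing an array does. Spots flagged as outlying left no indirect value for Gadd45a, Tnfsf11, Col1a1, Cd93, Fabp4 and Hbb-b1.

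**Figure D5:**
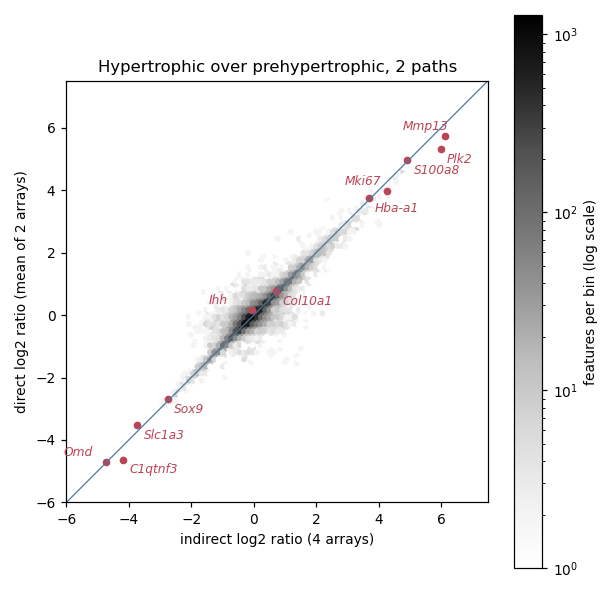
Log2 ratio, hypertrophic over prehypertrophic zone, from the 2 direct arrays (vertical) against the 4 arrays of the indirect path (horizontal), as the number of features per bin on a log colour scale, with 11 named genes in red and the line of equality in blue. Mmp13, Plk2 and Mki67 lie below the line, with a smaller direct than indirect ratio, and Omd and Sox9 on it.

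A last rise had no list. Limch1, which organises actomyosin, had levels of 4.41, 4.22, 4.09 and 4.22 in hypertrophic samples, against 0.11, -0.53, -1.12 and -1.44 in prehypertrophic samples. It rose by 4.75 ± 0.23 (5.52 without shared arrays) after -1.87 ± 0.23 from the proliferative zone, so it was lowest in the prehypertrophic zone. Its 3 probes ranged from 0.60 to 4.75.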

How the data were processed

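Two-colour arrays measured RNA of 12 samples, 4 per zone. Each deposited scanner file gives 1 channel's processed intensity, which Agilent Feature Extraction 8.1.1.1, per the submitters' processing notes and the file headers, had corrected for background and dye. The files' flags for saturated, outlying and well-above-background spots are deposited as other values (0 or 1). A deposited table of log2 values was not used, because 1 of its 12 columns matched its own scanner file best and 6 a file of the same zone (41232 probes).

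The 2 files of each array were merged on spot number, and log2 ratios were normalised by loess in limma 3.58.1 (R 4.3.3). Flagged ratios were left out (7249, of which 1469 on the direct arrays). Of 41174 probes, 40017 were well above background in at least 4 samples and kept. A gene took its brightest probe, so 27241 features remained (19352 with a symbol from the array's annotation) and 27173 could be tested. The model had zone and dye terms (eBayes, 3 residual and 1.22 prior degrees of freedom). All 12 samples entered it, since the proliferative ones link the arrays. Lower bounds used Aquantile-scaled channels and the dimmest signal well above background. The promoter windows came from RefSeq. On simulated data, in which 200 of 27173 features were changed in hypertrophic against prehypertrophic, 72 of 100 changes of 2-fold and 97 of 100 of 4-fold were recovered, with 8 false calls. The fit to the real data called a far larger share, 57.8% of features, so these rates do not give its error.

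The zones, the 29 gene lists (690 of 731 genes measured), the tests and the alternatives were chosen with earlier results of these data known. Genes were named by rule: the 15 largest rises and falls among called genes with the same sign on both direct arrays and on the indirect path, the same rises among genes well above background in every sample, the first 3 and the 4 most changed of each list, and 15 marker genes. Not every gene so chosen is printed, and 1 of the marker genes is not analysed here. Replicate numbers did not pair the samples: deviations of same-numbered samples correlated at -0.249, -0.107, -0.0807 and 0.0405. Precision is limited by the 6 arrays.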

Additional observations from a re-analysis of the deposited data

Results flagged for a closer look

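Of 336 sets of 4 samples examined, 20 held a sample whose gap to its nearest neighbour exceeded Dixon's critical value, and chance flags about 1 in 20. Hypertrophic 1 stood above the other hypertrophic samples in the level of Plk2 (3.63, others 3.42 to 3.45), Ect2 (0.929, others 0.755 to 0.784), Btg2 (2.84, others 2.56 to 2.59), Egr2 (0.516, others 0.23 to 0.276), Bcl2 (2.66, others 2.34 to 2.38), Cd79b (2.23, others 2.01 to 2.02) and Bglap (1.26, others 1.01 to 1.05). Its summed level of matrix proteases and inhibitors was 240, against 191 to 199. Hypertrophic 3 was the lowest for Pdk1 (0.412, others 0.681 to 0.728) and Bnip3 (3.24, others 3.59 to 3.62), and hypertrophic 4 had the highest perichondrium and tendon sum (36.6, others 31.5 to 32).

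Prehypertrophic 1 was the highest for Mki67 (1.97, others 1.37 to 1.47) and for the erythroid sum (119, others 27.7 to 43.2). It shared an array with a hypertrophic sample. Prehypertrophic 2 was the highest for Foxa3 (3.04, others 2.66 to 2.73) and the lowest for Emcn (-1.92, others -1.6 to -1.53). Prehypertrophic 3 was the lowest for Ppa1 (4.08, others 5.15 to 5.32) and Mcl1 (0.597, others 2.01 to 2.12). Prehypertrophic 4 was the lowest for Irx5 (0.737, others 0.948 to 0.985), Nrp2 (-2.85, others -2.28 to -2.19) and Postn (-1.85, others -1.43 to -1.36).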

How the results depend on the processing

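Background correction with normexp was not run, because the files used here hold no raw mean and background signals. The count of 15713 called features moved beyond 1.5-fold on the direct path (4248, 2792 higher and 1456 lower), on the indirect path (7465, 4457 higher and 3008 lower) and without the samples that shared an array with a hypertrophic sample (9689, 4776 higher and 4913 lower, with 1415 rather than 840 at least 2-fold lower), 3 fits with fewer samples. Leaving out each array in turn gave 12344 to 15057 calls, and 1917 to 1985 that were at least 2-fold higher. The osteoclast sum was 1.59 times higher in the hypertrophic zone, or 1.64 when scaled to the median of kept features, more than the spread between samples. With each sample left out in turn, which was added after seeing the data, the ratio of sums ran from 3.11 to 5.65 for the erythroid list (5.65 without prehypertrophic 1), 17.8 to 21.9 for neutrophils, 1.87 to 2.05 for monocytes, 2.08 to 2.21 for platelets and 1.56 to 1.65 for osteoclasts, and moved by less than the spread for the other 7 lists.

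Of 139 named genes 3 changed sign, none of them called with all arrays. Ihh was -0.0705 on the indirect path, -0.0659 without array 3 (-0.0659 to 0.159 over the arrays left out), -0.0146 with channels fitted separately and -0.0103 with the replicate block. Alpl was -0.0203 on the indirect path and -0.00923 without array 3 (-0.00923 to 0.266), and Cd200 was 0.0774 on the indirect path. With the replicate number as a block, 15443 features were called, 5960 higher and 9483 lower, and Ptch1 and Tnfrsf11b lost their calls. With probes averaged, 35 of 51 named genes with several probes moved by over 1.5-fold. The causes of these differences were not tested. Spots at saturation and the 2-colour ratios of dim probes limit what could be measured.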
